A study of Mus musculus with 8 samples.

Results

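The 10 genes described here stand at the centre of the microRNA pathway: Drosha, Dgcr8, Xpo5, Dicer1, Ago1, Ago2, Ago3, Ago4, Tnrc6a and Tnrc6b. They were chosen by gene symbol from a table of 18501 genes, all 10 symbols were found, and all 10 were among the 14359 genes that had enough counts to be tested. Their mRNA levels were measured by RNA sequencing in 8 libraries of rib cartilage chondrocytes from CD1 mice aged 10 days. The cells had been released with collagenase, filtered and plated before RNA extraction, so the RNA is that of plated primary cells. Mice of both mutant lines carried altered Mir140 alleles and were described by the submitters as overexpressing the 5p arm of this microRNA. CG mutants carried a mutation in the seed region of the 3p arm, and CT mutants carried a C>T base change at a place not given in the sources used here. Each line had its own wild-type group. The 4 groups (CG wild type, CG mutant, CT wild type and CT mutant) held 2 libraries each, and no treatment was named.

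A primary microRNA transcript is cut in the nucleus by the Microprocessor, which joins the RNase Drosha to the RNA-binding protein Dgcr8. Exportin-5, the product of Xpo5, carries the resulting hairpin to the cytoplasm, where Dicer1 trims it to a short duplex and one strand is loaded into an Argonaute protein. Argonautes hold the guide strand on target mRNAs, and the TNRC6 proteins bind Argonaute and bring in the deadenylases that silence the target. In growth plate cartilage, loss of Dicer1 is known to impair chondrocyte proliferation, and Mir140, which lies in the Wwp2 gene, is the best known cartilage microRNA.

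The Mir140 hairpin and its 3p product are shown because the CG mutants carried a mutation in the 3p seed region. Both are RefSeq sequences of build GRCm38.p6, from chromosome 8, and were not read from these mice. In the hairpin of 70 bases the capitals mark the 3p arm, and in the mature sequence of 21 bases they mark the seed, bases 2 to 8 counted from the 5′ end.
Mir140 hairpin: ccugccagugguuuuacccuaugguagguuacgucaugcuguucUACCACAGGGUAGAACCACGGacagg
mmu-miR-140-3p: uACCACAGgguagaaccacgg

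The 7-base complement of this seed, CTGTGGT, was searched on the sense strand of the longest annotated 3′ UTR of each gene (GENCODE M21), and the 10 genes are shown by the matches they hold. Capitals mark the 7 matching bases, with 10 bases of the UTR on each side.
Ago1, chromosome 4: ctctgcagccCTGTGGTcaaatgctgg
Ago2, chromosome 15: gaatacgggtCTGTGGTgataaataca
Ago2, chromosome 15: ttggtagtccCTGTGGTggtagcactg
Ago4, chromosome 4: cttttgctagCTGTGGTattcaccgca
Ago4, chromosome 4: ctctactccgCTGTGGTtgccctccac
Tnrc6b, chromosome 15: aaaccttgttCTGTGGTcatgcttatc
Tnrc6b, chromosome 15: cagagaccaaCTGTGGTctgtcagagg
The first Ago4 match is followed by an A and so extends to 8 bases. Thus 4 of the 10 genes (40%) held at least 1 match, against 19.3% of the 13836 tested genes with a 3′ UTR of at least 50 bases. The UTRs of the 10 genes are long, with a median of 3766 bases against 1188 bases for all of those genes. Among the 1304 genes whose UTR was at least 3766 bases long, 50.4% held a match. That set has a median of 4872 bases and is not matched in length to the 10 genes, not all of which reach 3766. Of those that do, Ago1, Ago2 and Tnrc6b held a match and Ago3 and Dicer1 did not. Among the 13004 genes with a UTR at least as long as the shortest of the 10, 20.4% held a match. These are matches of letters in a reference sequence, and no binding was measured.

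The libraries held 26536868 to 28678641 estimated counts each. The chondrocyte markers were abundant in all 8 (31150 to 60220 CPM summed over 10 markers, where CPM is a count scaled to the library's size). CG mutant replicate 1 stood apart within its line: its chondrocyte sum was 53600 CPM against 31150 to 33110 CPM in the other 3 CG libraries. The Y-linked gene Ddx3y had 2 to 30 counts in 3 libraries (replicate 1 of CG wild type and replicate 2 of both CT groups) and 2231 to 3669 counts in the other 5, so the sexes were mixed. The lines themselves differed widely: 5 erythroid genes summed to 2.91 to 16.8 CPM in the CG libraries and 785 to 1518 CPM in the CT libraries. Hba-a1 made up most of the CT sums, and Hba-a1, Hba-a2 and Alas2 were higher in every CT library than in any CG library. Hbb-bs and Hbb-bt overlapped between the lines, and in CT wild type replicate 2 (0.306 and 0.068 CPM) they lay below all 4 CG libraries. Summed endothelial markers (9.52 to 29.8 against 46.8 to 88.0 CPM) and cycling markers (7.98 to 12.1 against 19.9 to 30.5 CPM) were also higher in every CT library, as was each of their 4 and 3 genes. Summed skeletal muscle markers were lower (14.9 to 65.5 against 10.2 to 13.6 CPM), but of the 4 genes only Myod1 was separated by line, and Myh3, Acta1 and Ckm overlapped. Other lists were split by line in part. Of 5 fibroblast markers 4 were higher in every CT library than in any CG library, and 1 (Dcn) was lower. Of 8 macrophage and leukocyte markers 5 were higher, 1 (Cd14) was lower and 2 overlapped. Of 10 chondrocyte markers 4 were higher and 6 overlapped. In RNA from mixed cells, fewer cells of a type and less RNA per cell cannot be told apart. No label ties the lines to a culture or sequencing batch, so the line and any such batch cannot be told apart either.

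Per length of transcript, the 10 genes spanned a wide range of levels, and Xpo5 was the highest. The deposited FPKM (a fragment count scaled to transcript length and sequencing depth), averaged over the 8 libraries, was 45.4 for Xpo5, 18.5 for Dgcr8, 17.1 for Drosha, 16.3 for Ago2, 11.5 for Tnrc6a, 10.9 for Dicer1, 4.89 for Ago1, 4.37 for Ago3, 1.45 for Tnrc6b and 0.912 for Ago4. Xpo5 ranked above 88.8% of the tested genes in mean FPKM and Ago4 above 20.8%. Over single libraries, Xpo5 (41.52 to 50.35 FPKM) overlapped no other of the 10 genes. Dgcr8 (15.57 to 22.2), Drosha (14.66 to 19.37) and Ago2 (10.1 to 21.97) overlapped, as did Tnrc6a (9.42 to 12.61) with Dicer1 (9.39 to 11.75), and Ago1 (4.01 to 5.84) with Ago3 (3.69 to 5.44), so the order within these sets was not fixed from library to library. Ago2 also overlapped Tnrc6a and Dicer1. In the CG libraries it had 10.1 to 13.22 FPKM, below every value of Drosha and Dgcr8. Tnrc6b (1.28 to 1.59) and Ago4 (0.68 to 1.22) stood below the rest without overlapping each other. Ago2 varied most among the libraries, by 2.18-fold from the lowest to the highest, and Ago4 by 1.79-fold. The other 8 genes varied by 1.21-fold to 1.47-fold.

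**Figure D1:**
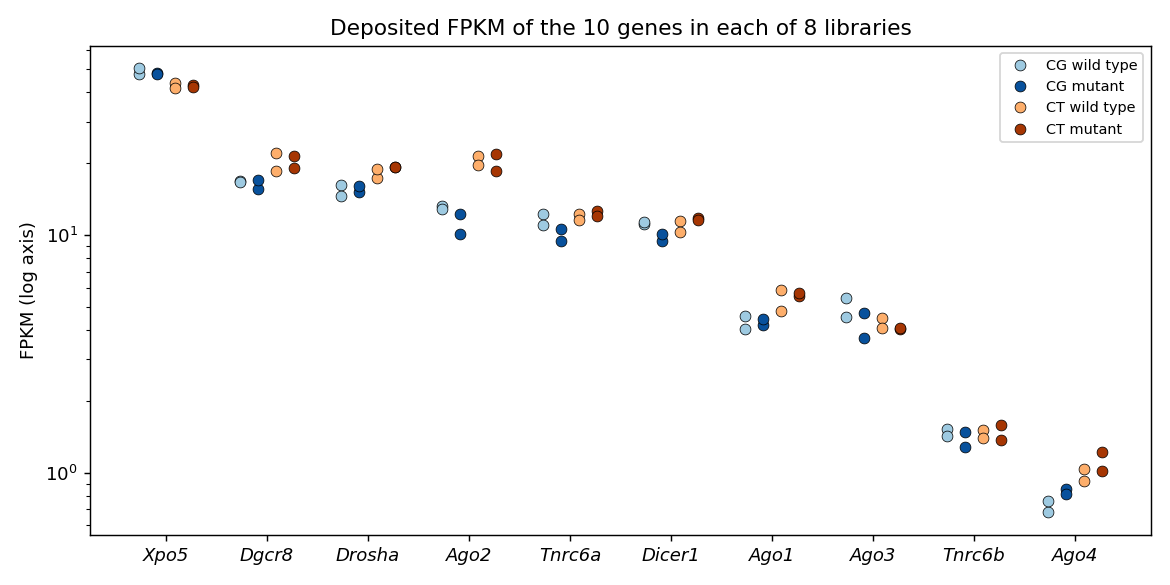
FPKM on a log axis (vertical) of each of the 10 genes (horizontal, ordered by mean level) in each of the 8 libraries, 1 point per library, coloured by group. Ago2 shows the widest separation by line (10.1 to 13.22 against 18.65 to 21.97 FPKM).

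No difference between a Mir140 mutant and its wild type passed the test for any of the 10 genes, in either line. The test was edgeR's quasi-likelihood test on the counts, with Benjamini-Hochberg adjustment over all 14359 genes and a threshold of 0.05. For the CG allele 0 of the 10 genes passed, as did 1 of all genes (0.00696%), and none of the 10 had an unadjusted p under 0.05, against 11.4% of all genes. For the CT allele 0 of the 10 passed, again beside 1 of all genes (0.00696%), and again none had an unadjusted p under 0.05, against 5.11% of all genes. DESeq2 called 216 genes in the CG line and 20 in the CT line, with 0 of the 10 in either. The median log2 fold change of the 10 genes was -0.04 in the CG line and 0.00 in the CT line, and that of all genes was 0.00 in both. In absolute size the median was 0.10 for the 10 genes against 0.17 for all genes in the CG line, and 0.05 against 0.12 in the CT line.

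Both Microprocessor genes had mutant effects near 0. Drosha (gene ID 14000, chromosome 15), the nuclease, had 16.19 and 14.66 FPKM in CG wild-type cells, 15.16 and 16.01 in CG mutant cells, 17.31 and 19.00 in CT wild-type cells and 19.27 and 19.37 in CT mutant cells. The CG groups overlapped, and both CT mutant libraries lay just above both CT wild types. Mutant over wild type, the log2 fold change was 0.07 ± 0.08 (SE, n = 2 against 2, edgeR) in the CG line and 0.05 ± 0.08 in the CT line, with adjusted p of 0.783 and 0.993. Dgcr8 (gene ID 94223, chromosome 16), its partner, had 16.94 and 16.74 FPKM in CG wild-type cells, 15.57 and 17.07 in CG mutant cells, 18.61 and 22.20 in CT wild-type cells and 19.22 and 21.50 in CT mutant cells. Its levels overlapped between mutant and wild type in both lines on this scale. The log2 fold change was -0.04 ± 0.09 (edgeR, adjusted p = 0.902) in the CG line and -0.06 ± 0.09 (edgeR, adjusted p = 0.993) in the CT line, and 95% intervals reached from -0.24 to 0.17 and from -0.26 to 0.15. The ratio of Drosha to Dgcr8 in FPKM stayed between 0.856 and 1.003 in all 8 libraries.

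Part of the Dgcr8 transcript is itself a microRNA hairpin, shown here because its bases lie within an annotated Dgcr8 coding sequence. The sequence is RefSeq's Mir1306 on chromosome 16 (79 bases, GRCm38.p6). The Dgcr8 counts were not whole numbers in any of the 8 libraries. Counts were also not whole in 7 libraries for Ago1, 7 for Ago3 and 6 for Drosha. Whether the hairpin had a part in the Dgcr8 counts was not tested.
Mir1306 hairpin: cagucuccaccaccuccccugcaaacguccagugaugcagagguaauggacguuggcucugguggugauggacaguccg

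Xpo5 (gene ID 72322, chromosome 17), the exporter of precursor hairpins, had 47.62 and 50.35 FPKM in CG wild-type cells and 48.09 and 47.47 in CG mutant cells. The CT values were 43.42 and 41.52 in the wild types and 42.78 and 41.90 in the mutants. Mutant and wild type overlapped in both lines. The log2 fold changes were 0.02 ± 0.10 (edgeR, adjusted p = 0.964) and -0.04 ± 0.10 (edgeR, adjusted p = 0.998), with 95% intervals of -0.21 to 0.24 and -0.27 to 0.18. The CG value took the opposite sign, between -0.03 and -0.04, on FPKM, with a term for sex and with total counts as the scale.

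Dicer1 (gene ID 192119, chromosome 12), which cuts the precursor hairpin to a duplex, had 11.16 and 11.30 FPKM in CG wild-type cells and 9.39 and 10.05 in CG mutant cells. Both CG mutant libraries lay below both wild types. CT wild types had 11.47 and 10.26 and the mutants 11.75 and 11.51. There both mutants lay above both wild types in FPKM, whereas in CPM (107.85 and 93.18 against 105.88 and 101.78) they overlapped. Its log2 fold change was -0.15 ± 0.10 (edgeR, adjusted p = 0.591) in the CG line and 0.05 ± 0.10 (edgeR, adjusted p = 0.998) in the CT line. The difference between these effects, tested as an interaction, was -0.20 ± 0.14 (edgeR, adjusted p = 0.967), the furthest from 0 of the 10 genes. Tnrc6a had the next value, -0.18 ± 0.12 (edgeR, adjusted p = 0.967). For this interaction 0 of the 10 genes passed, against 3 of all genes (0.0209%). None of the 10 had an unadjusted p under 0.05 for it, against 4.78% of all genes, and DESeq2 called 38 genes with 0 of the 10 among them.

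Among the Argonautes, which hold the microRNA, Ago2 is the mouse Argonaute known to slice a fully paired target. Ago2 (gene ID 239528, chromosome 15) had 13.22 and 12.88 FPKM in CG wild-type cells, 10.10 and 12.21 in CG mutant cells, 21.55 and 19.63 in CT wild-type cells and 21.97 and 18.65 in CT mutant cells. Both CG mutants lay below both CG wild types, and the CT groups overlapped. Mutant over wild type, the log2 fold change was -0.18 ± 0.12 (edgeR, adjusted p = 0.591) in the CG line and -0.06 ± 0.11 (edgeR, adjusted p = 0.996) in the CT line. Without CG mutant replicate 1, the library that stood apart, the CG value was -0.12 (edgeR, adjusted p = 0.99). The 95% intervals of the effects in the full fit were -0.44 to 0.08 and -0.32 to 0.20.

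Ago1, Ago3 and Ago4 (gene IDs 236511, 214150 and 76850) neighbour each other on chromosome 4. Ago1 had 4.58 and 4.01 FPKM in CG wild-type cells, 4.18 and 4.41 in CG mutant cells, 4.81 and 5.84 in CT wild-type cells and 5.55 and 5.71 in CT mutant cells. Mutant and wild type overlapped in both lines, and the log2 fold changes were 0.05 ± 0.11 and 0.04 ± 0.11 (edgeR, adjusted p = 0.887 and 0.998). Ago4, the lowest of the 10 genes with 105 to 206 counts per library, had 0.68 and 0.76 FPKM in CG wild-type cells and 0.85 and 0.81 in CG mutant cells. Both CG mutants lay above both CG wild types. CT wild types had 0.92 and 1.04 FPKM and CT mutants 1.22 and 1.02, and in CPM (5.47 and 5.37 against 6.73 and 5.65) both mutants lay above both wild types. Its log2 fold changes were 0.25 ± 0.18 (edgeR, adjusted p = 0.618) in the CG line and 0.19 ± 0.17 (edgeR, adjusted p = 0.976) in the CT line. Ago3 had 5.44 and 4.53 FPKM in CG wild-type cells, 3.69 and 4.68 in CG mutant cells, 4.48 and 4.07 in CT wild-type cells and 4.03 and 4.07 in CT mutant cells. The CG groups overlapped, and the CT mutants lay at or below the CT wild types. Its log2 fold changes were -0.14 ± 0.12 (edgeR, adjusted p = 0.658) and -0.19 ± 0.11 (edgeR, adjusted p = 0.958). Ago3 and Ago4 had the values furthest from 0 in the mean mutant effect over both lines, -0.17 ± 0.08 and 0.22 ± 0.12 (edgeR, adjusted p = 0.472 and 0.521). For that mean effect 0 of the 10 genes and 0 of all genes (0%) passed, 0 of the 10 and 11.5% of all genes had an unadjusted p under 0.05, while 202 of all genes and 0 of the 10 were called by DESeq2.

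TNRC6 proteins, also called GW182 proteins, link Argonaute to mRNA decay. Tnrc6a (gene ID 233833, chromosome 7) had 12.20 and 11.04 FPKM in CG wild-type cells, 9.42 and 10.59 in CG mutant cells, 12.22 and 11.53 in CT wild-type cells and 12.61 and 12.02 in CT mutant cells. Both CG mutants lay below both CG wild types, and the CT groups overlapped. Its log2 fold change was -0.16 ± 0.09 (edgeR, adjusted p = 0.53) in the CG line, the smallest adjusted p of the 10 genes there, and 0.02 ± 0.09 (edgeR, adjusted p = 0.998) in the CT line. Tnrc6b (gene ID 213988, chromosome 15) had 1.52 and 1.42 FPKM in CG wild-type cells, 1.28 and 1.48 in CG mutant cells, 1.51 and 1.40 in CT wild-type cells and 1.37 and 1.59 in CT mutant cells, overlapping in both lines. Its log2 fold changes were -0.04 ± 0.11 and -0.02 ± 0.11 (edgeR, adjusted p = 0.91 and 0.998).

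**Figure D2:**
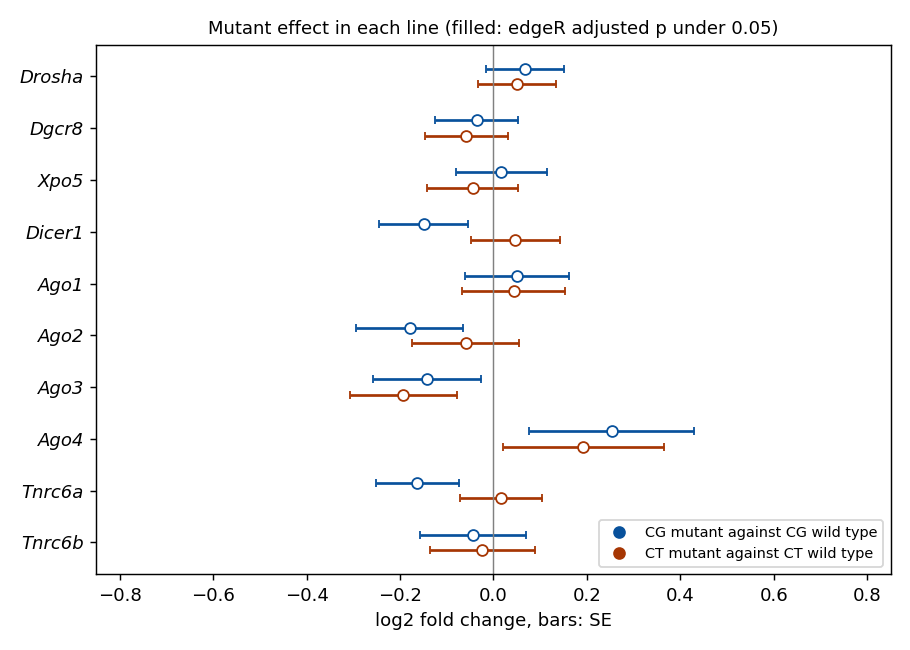
Log2 fold change of mutant over wild type (horizontal, edgeR) for each of the 10 genes (vertical, in the order of the pathway), in the CG line (blue) and the CT line (brown). Bars are 1 SE, and all 20 points are open because no adjusted p was under 0.05, the values running from -0.19 to 0.25.

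Libraries of mutant and wild type did not overlap in CPM for 5 of the 10 genes in the CG line, against 45.6% of all genes. Of these Ago4 lay above (23.2% of all genes) and Ago2, Dgcr8, Dicer1 and Tnrc6a below (22.5%). For the CT allele 3 of the 10 did not overlap, against 33.6% of all genes, Ago4 and Drosha lying above (17.2%) and Ago3 below (16.3%). With 2 libraries against 2, such separation is common. The 4 genes with a match to the 3p seed, Ago1, Ago2, Ago4 and Tnrc6b, had the log2 fold changes 0.05, -0.18, 0.25 and -0.04 in the CG line, none of which passed the test. The SE of a mutant effect in 1 line ran from 0.08 to 0.18 on the log2 scale, and the widest 95% interval, that of Ago4 in the CG line, ran from -0.16 to 0.66, so small changes were not detectable.

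The lines differed from each other in far more genes than mutants differed from wild types, and Ago2, Ago3 and Xpo5 were among the genes that differed. Ago2 was higher in the CT line, and Ago3 and Xpo5 were lower in counts. Between the wild types 3 of the 10 genes passed the test, 1 higher and 2 lower in CT, against 33.7% of all genes (17% higher and 16.8% lower). Between the mutants the same 3 genes passed in the same directions, against 36.1% of all genes (17.9% higher and 18.2% lower). Both comparisons come from 1 fit and share its estimate of spread over the 8 libraries, so the second is not independent support for the first. Passing in both comparisons in 1 direction was the case for 3 of the 10 genes and for 25.8% of all genes, so the 10 genes differed about as often as any. Their median absolute log2 fold change was 0.17 between the wild types and 0.14 between the mutants, against 0.37 and 0.39 for all genes.

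Ago2 was the strongest of these. In CPM it stood at 107.7 and 108.4 in CG wild-type cells and 91.3 and 99.6 in CG mutant cells. CT libraries stood at 166.8 and 146.4 in the wild types and 163.7 and 136.8 in the mutants. The 4 CT libraries lay above the 4 CG libraries without overlap. The log2 fold change of CT over CG was 0.54 ± 0.11 (edgeR, adjusted p = 0.01, a 1.45-fold difference) between the wild types and 0.66 ± 0.12 (edgeR, adjusted p = 0.00396, 1.57-fold) between the mutants. The first comparison missed the threshold when either CG wild-type library was left out (edgeR, adjusted p = 0.0603 without replicate 1 and 0.0592 without replicate 2), with the fold change nearly as large, 0.53 and 0.54. The second passed whichever library was left out, with adjusted p of 0.00505 to 0.0293 (edgeR), including without CG mutant replicate 1 (0.59, adjusted p = 0.0203). The authors' deposited table of comparisons lists 2655 genes, and how these were chosen was not established here. The genes of the wider pathway (described below) that it lists were all higher in CT. Tnrc6c, Ddx17, Adar and Pan2, which were lower in CT, are not in it. The absence of Ago3 and Xpo5, also lower in CT, is therefore not read as a result. Ago2 was the only one of the 10 genes in that table. There its log2 ratio was 0.54 (q = 0.000586) between the wild types and 0.66 (q = 0.000257) between the mutants, beside -0.18 (q = 1) and -0.06 (q = 0.999) for mutant over wild type in the CG and CT lines.

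Xpo5 had 177.0 and 193.0 CPM in CG wild-type cells, 198.0 and 176.3 in CG mutant cells, 153.0 and 141.0 in CT wild-type cells and 145.2 and 140.0 in CT mutant cells. All 4 CT libraries lay below all 4 CG libraries. The log2 fold change was -0.33 ± 0.10 (edgeR, adjusted p = 0.0329) between the wild types and -0.39 ± 0.10 (edgeR, adjusted p = 0.0165) between the mutants. The wild-type call was lost when any wild-type or CT mutant library was left out (edgeR, adjusted p = 0.0544 to 0.188), and the mutant call without CG mutant replicate 1 or either CT mutant (0.0671 to 0.0951). On FPKM the values were -0.20 and -0.17 (limma on log2(FPKM + 1), adjusted p = 0.122 and 0.166). With total counts as the scale they were -0.21 and -0.18 (edgeR, adjusted p = 0.0975 and 0.144).

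The difference in Ago3 depended on the deposited unit and on how libraries were scaled. In CPM it had 61.5 and 54.7 in the CG wild types, 50.2 and 55.0 in CG mutant cells, 46.8 and 39.0 in CT wild-type cells and 38.1 and 37.0 in CT mutant cells, so that all CT libraries lay below all CG libraries. The log2 fold change in counts was -0.44 ± 0.12 (edgeR, adjusted p = 0.0219) between the wild types and -0.49 ± 0.12 (edgeR, adjusted p = 0.0134) between the mutants. With total counts as the scale the differences were -0.32 and -0.28 and did not pass (edgeR, adjusted p = 0.0957 and 0.128). In FPKM the lines overlapped, and the differences were -0.18 and -0.03 (limma on log2(FPKM + 1), adjusted p = 0.302 and 0.858). The length that links the 2 units, the deposited count divided by FPKM and by the library's total count, was 11.05 to 11.98 kb for Ago3 in the CG libraries and 9.84 to 10.72 kb in the CT libraries. For 8 of the 10 genes this length varied by at most 1.06-fold over the libraries, and for Ago3 and Ago4 by 1.22-fold and 1.20-fold. Counts of Ago3 were not whole in 7 of 8 libraries, and how the authors set the length was not given in the sources used here. Between the wild types the call was lost without either CG wild type or CT wild type replicate 2 (edgeR, adjusted p = 0.0531 to 0.129), and between the mutants without either CT mutant (0.0606 and 0.0753).

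**Figure D3:**
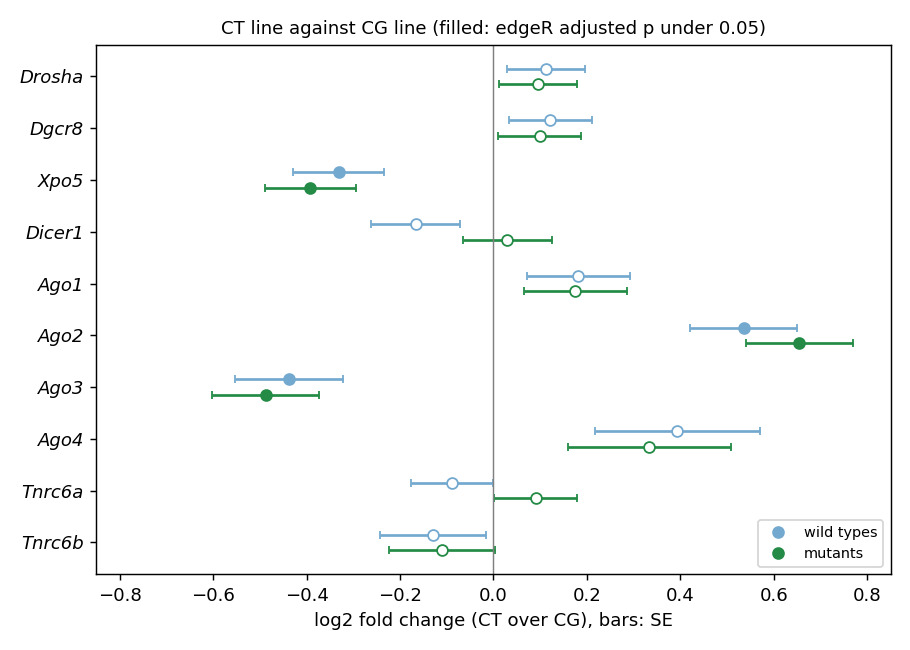
Log2 fold change of the CT over the CG line (horizontal, edgeR) for each of the 10 genes (vertical), between the wild types (light blue) and between the mutants (green), with bars of 1 SE. Filled points have an adjusted p under 0.05: Ago2 to the right at 0.54 and 0.66, and Ago3 and Xpo5 to the left between -0.33 and -0.49.

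The other 7 genes did not pass in either comparison of lines. Ago4 had the largest values among them, 0.39 ± 0.18 and 0.33 ± 0.17 (edgeR, adjusted p = 0.119 and 0.167), with all 4 CT libraries above all 4 CG libraries. Dgcr8 was likewise separated, at 0.12 ± 0.09 and 0.10 ± 0.09 (edgeR, adjusted p = 0.322 and 0.414). In all, 5 of the 10 genes separated the 4 CT from the 4 CG libraries in CPM, against 46.8% of all genes. Ago2, Ago4 and Dgcr8 lay above (23.7% of all genes) and Ago3 and Xpo5 below (23.1%). Ago1 (0.18 and 0.17), Drosha (0.11 and 0.10), Dicer1 (-0.17 and 0.03), Tnrc6a (-0.09 and 0.09) and Tnrc6b (-0.13 and -0.11) had adjusted p of 0.213 to 0.829 in edgeR. How libraries were scaled shifted all of these values. With total counts in place of edgeR's TMM factors the median of all genes moved from 0.00 to 0.13 between the wild types and from -0.01 to 0.21 between the mutants, and the share of called genes that were higher in CT went from 50.3% to 65.8% and from 49.5% to 72.2%. On that scale only Ago2 of the 10 passed between the wild types (0.66), where 22.4% of all genes passed upward. Ago1, Ago2, Ago4, Drosha and Tnrc6a passed upward between the mutants, where 28.6% of all genes did, while Tnrc6a between the wild types (0.03) and Tnrc6b between the mutants (0.10) took the opposite sign. On FPKM (limma on log2(FPKM + 1)) the shares of called genes that were higher were 67.3% and 73.3%, and the median of all genes was 0.12 and 0.19. Of the 9 genes tested on that scale, Ago2 passed between the wild types, where 25.7% of all genes passed upward, and Ago2 and Drosha (adjusted p = 0.048) passed between the mutants, where 33% did. With 0.1 in place of 1 added, Ago1 (limma, adjusted p = 0.0499) passed in place of Drosha. Ago2 exceeded the all-gene median on every scale tried and was called on every scale. Endothelial and cycling markers, and the erythroid genes Hba-a1, Hba-a2 and Alas2, were higher in the same CT libraries, as given above. Fibroblast, macrophage and leukocyte, and chondrocyte markers were split by line in part. The part of all these cell types in the differences between the lines was not tested.

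In FPKM, the summed Argonaute level of the CT line was larger and made up more of Ago2. The 4 Argonautes summed to 23.1 ± 1.23 FPKM (SD, n = 2) in the CG wild types, 20.5 ± 2.33 in CG mutant cells, 31.2 ± 0.834 in the CT wild types and 31.1 ± 2.35 in the CT mutants. FPKM is a scale on which the median of all genes was itself higher in CT, as given above, and in TMM-scaled CPM the gap was smaller. There the sums were 202.5 ± 6.55, 186.3 ± 8.06, 241.4 ± 15.8 and 231.6 ± 20.3 CPM in the same order. CPM is also not scaled to length, so Ago3, with the longest implied length of the 4, weighs more in it than in FPKM. The parts of library scaling and of length in the smaller gap were not tested. In FPKM, Ago2 made up 56.7% ± 1.98 of the Argonaute sum in the CG wild types, 54.4% ± 1.10 in CG mutant cells, 66.0% ± 2.59 in the CT wild types and 65.2% ± 2.62 in the CT mutants. The share of Ago3 was 21.6% and 20.4% in the CG groups and 13.7% and 13.1% in the CT groups, which includes the change of its implied length. Ago1 kept 17.1% to 21.1% and Ago4 3.14% to 4.09% in the 4 groups. The ratio of Ago2 to Dicer1 in FPKM was 1.08 to 1.22 in the CG libraries and 1.62 to 1.91 in the CT libraries. No test was run on these sums and ratios.

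**Figure D4:**
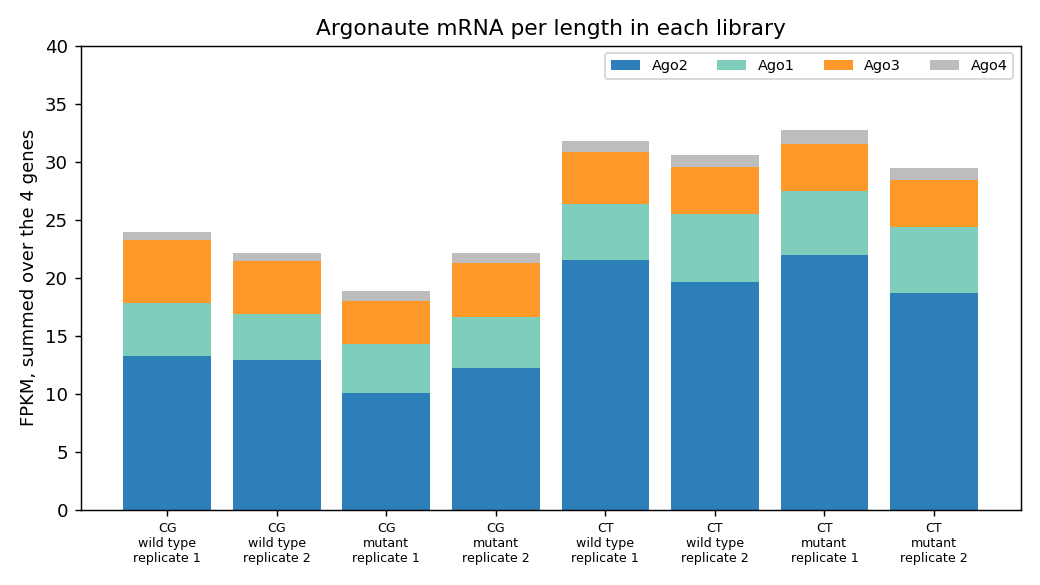
FPKM of the 4 Argonaute genes (vertical, stacked from 0) in each of the 8 libraries (horizontal), with Ago2 at the bottom, then Ago1, Ago3 and Ago4. The Ago2 segment is 10.1 to 13.22 FPKM high in the 4 CG libraries and 18.65 to 21.97 in the 4 CT libraries.

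The make-up of the TNRC6 family in FPKM also varied by line. With Tnrc6c, its other mouse member, the family summed to 21.3 ± 0.764 FPKM (SD, n = 2) in the CG wild types, 19.2 ± 1.61 in CG mutant cells, 19.2 ± 1.03 in the CT wild types and 19.7 ± 0.438 in the CT mutants. Tnrc6a made up 54.6% and 52.1% of this sum in the CG wild types and mutants and 61.9% and 62.6% in the CT groups. Tnrc6c, which is not one of the 10 genes, made up 38.5% and 40.7% in the CG groups and 30.6% and 29.8% in the CT groups. Tnrc6c was lower in CT in counts, with log2 fold changes of -0.60 ± 0.09 (edgeR, adjusted p = 0.00224) between the wild types and -0.64 ± 0.09 (edgeR, adjusted p = 0.00144) between the mutants, and kept the call whichever library was left out.

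The wider pathway was described with a list of 56 other genes, of which 51 were tested and Lin28a, Lin28b, Trim71, Piwil1 and Piwil4 were not. No gene of the list passed in either mutant effect, in their mean or in their difference (edgeR, smallest adjusted p = 0.379). An unadjusted p under 0.05 occurred for 0, 0, 1 and 0 of the 51 genes, and DESeq2 called 0 of them in each of the 4 comparisons. Between the lines many passed: 17 were higher and 4 lower in CT between the wild types, the median log2 fold change being 0.09, and 20 were higher and 4 lower between the mutants, the median being 0.13. The median of all genes was 0.00 and -0.01. Between the wild types 33.7% of all genes passed (17% higher and 16.8% lower), and between the mutants 36.1% (17.9% and 18.2%). With total counts as the scale 20 were higher and 2 lower between the wild types, and 27 and 2 between the mutants. On that scale all genes shifted upward, and 22.4% and 28.6% of them passed higher.

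Genes that help load the duplex into Argonaute included the largest of these differences. Of 8 Dicer partners and loading factors, 6 were higher and 1 was lower in CT in both comparisons of lines. Of all genes, 17% passed higher and 16.8% lower between the wild types, and 17.9% and 18.2% between the mutants. Dnajb1, an HSP40 co-chaperone, had 10.7 ± 0.912 FPKM (SD, n = 2) in the CG wild types and 49.8 ± 3.61 in the CT wild types, which gave a log2 difference of 2.10 ± 0.12 (edgeR, adjusted p = 0.00011). Hspa8, the constitutive HSP70, went from 696 ± 0.156 to 1871 ± 323 FPKM, with 1.30 ± 0.14 (edgeR, adjusted p = 0.000644). Hsp90aa1, an HSP90 that opens Argonaute for loading, went from 199.9 ± 8.67 to 481 ± 17.1 FPKM, with 1.14 ± 0.09 (edgeR, adjusted p = 0.000277). Between the mutants the same 3 genes had log2 fold changes of 2.06, 1.65 and 1.24. These chaperones serve many client proteins besides Argonaute and are known to respond to heat and other stress. Adar, which edits double-stranded RNA including microRNA precursors, was the lower one (16.7 ± 0.714 against 12.3 ± 0.976 FPKM), at -0.56 ± 0.14 between the wild types (edgeR, adjusted p = 0.0193). That Adar call was lost without either CG wild type or CT wild type replicate 2 (edgeR, adjusted p = 0.0782 to 0.105), and the call between the mutants without CG mutant replicate 1 (0.0533) or CT mutant replicate 2 (0.073) and on FPKM with 0.1 added (limma, 0.0564).

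In transport, Xpo1, the exporter of proteins and of some RNAs, was higher in CT (13.4 ± 1.40 against 40.5 ± 2.34 FPKM in the wild types), at 1.46 ± 0.11 (edgeR, adjusted p = 0.000189), in contrast to the lower value of Xpo5. Ran and Ipo8 did not pass. Of 7 Microprocessor cofactors, 2 were higher and 1 lower between the wild types. The lower one was Ddx17, an RNA helicase (103 ± 2.62 against 86.9 ± 0.262 FPKM), at -0.35 ± 0.09 (edgeR, adjusted p = 0.0166), a call lost when any 1 of the 4 wild-type libraries was left out (edgeR, 0.0522 to 0.112), on FPKM (limma on log2(FPKM + 1), adjusted p = 0.0754) and with total counts (edgeR, 0.088). Of 10 tested genes for precursor tailing and decay 2 were higher and 0 lower. Of 22 tested silencing effectors 6 were higher and 2 lower between the wild types, among them the deadenylase Cnot6l, at 0.84 ± 0.13 (edgeR, adjusted p = 0.00257). Of all genes 17% passed higher and 16.8% lower in this comparison, and nothing is read from the counts of these 3 roles. Pan2, another deadenylase, was lower at -0.39 ± 0.12 (edgeR, adjusted p = 0.0354), which was lost on FPKM (limma on log2(FPKM + 1), adjusted p = 0.134), with total counts (edgeR, 0.118) and without either CG wild type, either CT mutant or CT wild type replicate 2 (edgeR, 0.0528 to 0.145).

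**Figure D5:**
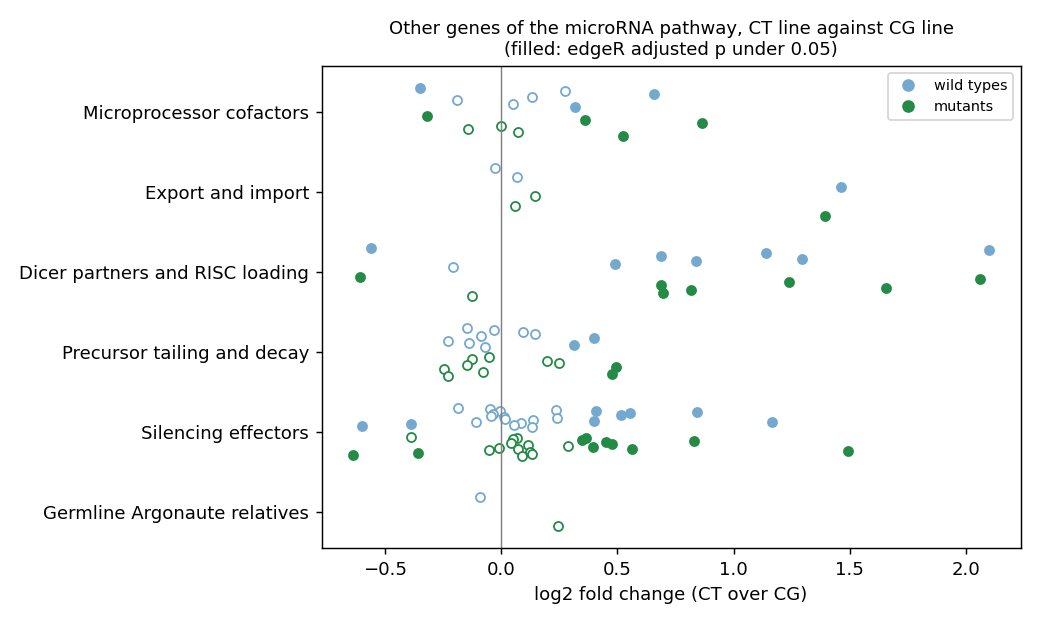
Log2 fold change of the CT over the CG line (horizontal, edgeR) for the 51 tested pathway genes, grouped by role (vertical), between the wild types (light blue) and the mutants (green), with filled points for an adjusted p under 0.05. Most loading factors lie to the right, up to 2.10 for Dnajb1, and the lowest points belong to Tnrc6c (-0.60 and -0.64) and Adar.

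The genes whose pattern was most like that of Ago2, Dicer1 and Drosha were named by Pearson's r of log2 CPM over the 8 libraries, among 9194 genes of sufficient level. For Ago2 they were Mfn1 (r = 0.998), Hilpda (0.996) and Nup153 (0.994), and 889 genes had r over 0.9. The libraries fall into 2 sets by line, and Ago2 differed between these sets. Mfn1, a mitochondrial fusion protein, had log2 fold changes of 0.50 and 0.61 of CT over CG, close to those of Ago2, while Hilpda, a lipid droplet protein, had 0.84 and 1.20. For Drosha the genes were 1810022K09Rik (0.984), S100a13 (0.961) and Frmd4a (0.960), with 105 genes over 0.9. For Dicer1 they were Spire1 (0.945), Cbll1 (0.940) and Klhl10 (0.935), with only 9 genes over 0.9. Among the 45 pairs of the 10 genes, Ago1 and Drosha had the most alike levels (r = 0.944), and after the group means were subtracted their r was 0.916. Ago2 and Xpo5 had the most opposed levels (r = -0.868), and with the group means subtracted their r was 0.189. With 2 libraries per group, subtracting the group mean leaves equal and opposite deviations, so each r after subtraction rests on fewer independent values than libraries. These correlations describe 8 libraries that share line and depth and carry no test.

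Wwp2, the gene that holds Mir140, was read as a check on the locus. Its mean was 143 ± 4.73 FPKM (SD, n = 2) in the CG wild types, 227 ± 71.4 in CG mutant cells, 82.0 ± 14.3 in the CT wild types and 83.2 ± 26.6 in the CT mutants. The mutant effects were 0.74 ± 0.28 (edgeR, adjusted p = 0.384) in the CG line and -0.03 ± 0.28 (edgeR, adjusted p = 0.998) in the CT line. Wwp2 was lower in the CT than in the CG line in the full fit, and the alternatives to that fit were not read for it. The log2 fold change was -0.87 ± 0.28 between the wild types (edgeR, adjusted p = 0.0436) and -1.64 ± 0.28 between the mutants (edgeR, adjusted p = 0.00367). Mature microRNA is not measured by these libraries, so they hold no direct check of the Mir140 alleles or of the 5p level.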

How the data were processed

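RNA of cultured rib chondrocytes was sequenced on DNBSEQ, per the labels and the series design text. HISAT2 2.0.4 and mm9 appear in the submitters' processing notes. Which program counted the reads, and over which annotation, was not given in the sources used here. Per the file headers, the authors deposited for each gene of each library its estimated count and its FPKM. They also deposited a table of log2 ratios with q-values, used only where named. A table of 3 of the 8 libraries was not used. Groups came from the titles in the labels, which number 2 libraries per group and do not say whether these are separate animals, so p-values measure only the spread between these libraries. No 2 libraries matched within sampling noise (chi-square per degree of freedom at least 15.97).

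Estimated counts were rounded to whole numbers. edgeR 4.0.16 (R 4.3.3) fitted 4 group means to 8 libraries (4 residual degrees of freedom) after TMM scaling and filterByExpr, which kept 14359 genes, with Benjamini-Hochberg adjustment over them and a threshold of 0.05. The fit was tested on simulated data. SE is the log2 fold change divided by the root of F, and CPM uses TMM-scaled library sizes. Comparisons were each mutant against its wild type, their mean and difference, and CT against CG within wild types and within mutants. DESeq2 1.42.0, limma 3.58.1 on log2(FPKM + 1) or log2(FPKM + 0.1), other scaling, no filter, a replicate block, a term for sex (Ddx3y of at least 100 counts), each line alone and leaving out each library were alternatives. Total-count scaling was added after seeing the data.

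Named were the 10 genes, pathway genes that passed in a mutant effect or were among the 5 smallest p-values each way between the wild types (5 higher and 4 lower), and the 3 genes most correlated with Ago2, Dicer1 and Drosha among genes of mean log2 CPM of at least 3. Members and lists were chosen with earlier results of these data known. Reference sequences and UTRs are of GRCm38, not the authors' build, so no coordinates are given.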

Additional observations from a re-analysis of the deposited data

How the results depend on the processing

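Across the alternatives for single genes, 890 values kept their direction and side of the threshold, 76 lost the threshold, 6 gained it and 30 changed sign, and the cause was not tested. None of the 10 genes passed in a mutant effect under any alternative. The number of all genes called was less stable. In the CG line it was 216 with DESeq2, 13 without a filter, 4 and 2 on FPKM with 1 and 0.1 added, 2 with a term for sex, 4 with total counts and 1 to 522 without single libraries, the 522 without CG mutant replicate 2. In the CT line it was 20 with DESeq2, 2 without a filter, 4 with the replicate block, 3 with that line alone and 0 to 4 without single libraries. For the mean effect it was 202 with DESeq2, 1 without a filter, 5 with the replicate block, 1 with a term for sex and 0 to 319 without single libraries. For the difference it was 38, 5 without a filter, 6 with the replicate block and 1 to 97. Between the lines the replicate block gave 2756 (wild types) and 3397 (mutants), and leaving out single libraries gave 2137 to 5324 and 2908 to 5210. The block was coded within each line with replicate 1 as its base. Its comparisons of lines are therefore those fitted at replicate 1, not those of the group means, and do not check the same difference. Of the 10 genes, 1 passed between the wild types on FPKM with 1 or 0.1 added, with the replicate block and with total counts, and 0 to 3 without single libraries. Between the mutants 1 passed with the replicate block, 5 with total counts, 2 on either FPKM scale (Ago2 with Drosha or Ago1) and 1 to 3 without single libraries. The replicate numbers do not pair the libraries by any label, and deviations of same-numbered libraries correlated at -0.0892 in the CG line and 0.248 in the CT line over 14359 genes. In the CT line the numbers also follow sex, Ddx3y being high in both replicates 1 and low in both replicates 2. There any pairing and sex cannot be told apart. In the block's line comparisons, fitted at replicate 1, Ago2 passed both, at 0.68 and 0.80 beside 0.54 and 0.66 in the full fit. Ago3 (edgeR, adjusted p = 0.107 and 0.0792) and Xpo5 (0.147 and 0.0859) passed neither. Ddx17 (0.0861 and 0.0992) and Pan2 (0.161 and 0.208) passed neither as well. Since the quantity compared had changed, these are not read as calls lost to pairing. Signs changed as follows. In the CG line Xpo5 was -0.0347 and -0.0353 on FPKM, -0.0314 with sex and -0.0374 with total counts, Dgcr8 was 0.00292 with sex and Ago1 -0.00416 with total counts. In the CT line Tnrc6b was 0.0136 and 0.0204 on FPKM and 0.0179 with total counts, and Dgcr8 0.000137 on FPKM + 0.1. Between the wild types Tnrc6a was 0.0299, 0.0322 and 0.0306, and between the mutants Tnrc6b was 0.0592, 0.0941 and 0.102, each on both FPKM scales and with total counts. Without single libraries the CG values ran from -0.0706 to 0.102 for Xpo5 and from -0.0165 to 0.123 for Ago1. The CT values ran from -0.0474 to 0.0838 for Tnrc6a, from -0.124 to 0.071 for Tnrc6b, from -0.194 to 0.0641 for Ago2, from -0.0715 to 0.167 for Ago1, from -0.102 to 0.0161 for Xpo5, from -0.141 to 0.0289 for Dgcr8 and from -0.0548 to 0.156 for Dicer1. Between the mutants Dicer1 ran from -0.00695 to 0.0579. At the depth of these libraries Ago4, with 105 to 206 counts, was the least precise of the 10 genes.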
